A study of Mus musculus with 198 samples.

Results

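Cultured mouse cortical neurons carrying DNMT3A constructs with 1 altered residue in the ADD domain were taken from the shallow bisulfite libraries by their genotype label, G532S or M548K. G532S replaces a glycine with a serine, and M548K replaces a methionine with a lysine. Of 198 samples in the series, 13 carried these labels, 7 of them G532S and 6 M548K. The series profiled DNA methylation in mouse brain tissues, liver and cultured cortical neurons with altered DNMT3A.

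DNMT3A is the de novo DNA methyltransferase that writes most non-CG methylation in maturing neurons, chiefly at cytosines followed by adenine (mCA). CG methylation (mCG), once laid down, is copied at replication by the maintenance enzyme DNMT1 and is already high in embryonic cells. The protein has a PWWP domain that binds methylated lysine in histone H3, an ADD domain, and a catalytic methyltransferase domain. The ADD domain folds onto the catalytic domain and holds it inactive until it binds the tail of a histone H3 that is unmethylated at lysine 4. Both variants have been reported in people with Tatton-Brown-Rahman syndrome, an overgrowth and intellectual disability disorder caused by loss of DNMT3A function.

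All groups were C57BL/6J cortical neurons from embryonic day 14.5, from male and female cells mixed, after 12.5 days in vitro. The G532S and M548K libraries were set against 13 libraries labelled WT construct, 10 labelled DNMT3a knockout and 10 labelled No virus. For mCA they were also set against 6 other altered constructs. These were W297del (5 libraries), S312fs11x (4), V665L (8), Y735C (11), R749C (7) and P904L (7). The labels do not say how the knockout was made, although its titles hold the word Cre, or whether construct cultures also lacked their own Dnmt3a. Per the labels' protocols, the submitters chose cultures in which mutant and WT samples had equal Dnmt3a messenger RNA by qRT-PCR. The share of transduced cells and the amount of DNMT3A protein are not given in the sources used here, so fewer transduced cells and less methylation per cell cannot be told apart in these bulk values. No value used here checks neuronal identity or construct expression. The construct code in the titles matched the genotype label, with code 11 in 7 of 7 G532S libraries and code 10 in 6 of 6 M548K libraries.

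Each library gave 1 genome-wide fraction of cytosines called methylated in each of the contexts CA, CT, CC and CG, and 1 for unmethylated lambda phage DNA added as a conversion control. Fractions are given below as percentages and differences in percentage points. Libraries were labelled with a genomic coverage of 0.01 to 0.03, and the table does not give how many cytosines each percentage rests on; counting intervals could therefore not be set. The labels do not say which libraries came from separate cultures, so p-values measure only the spread between libraries, which may be technical. Each test was a two-sided permutation test of the difference in means, adjusted by the Benjamini-Hochberg method over 21 culture comparisons per context with a threshold of 0.05.

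Before the results, 3 of the 13 WT construct libraries have to be set apart. Replicates 1, 6 and 8 had mCA of 0.585%, 0.638% and 0.617%, whereas the other 10 lay between 1.02% and 1.55%. These 3 libraries have titles that start with Gabel21 or hold an S022 serial, and the other 10 do not. Of the compared groups, 1 G532S, 2 M548K, 2 knockout and 2 No virus libraries share these title formats, whose meaning the labels do not state. Results against the WT construct are therefore given also without all libraries of these formats, and by permutation within title format, in which all titles without a Gabel21 or Gabel_33 prefix, an S022 serial or index bases count as 1 format. A library whose format is absent from the other group drops out of that permutation.

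The first comparison asked whether each altered construct gave mCA above the level of cultures labelled DNMT3a knockout. G532S cultures had more mCA than knockout cultures, and M548K cultures did not. The 7 G532S libraries had mCA of 0.640%, 0.878%, 0.883%, 0.657%, 0.614%, 0.575% and 0.874%. The 6 M548K libraries had 0.416%, 0.499%, 0.420%, 0.492%, 0.390% and 0.423%. The 10 knockout libraries lay between 0.407% and 0.626%, with a median of 0.491%. Thus 5 of the 7 G532S libraries lay above every knockout library and the other two lay within the knockout range, whereas M548K libraries lay within that range except 1, which fell below it.

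Mean mCA was 0.732% ± 0.140 (SD, n = 7) in G532S cultures and 0.495% ± 0.0694 (SD, n = 10) in knockout cultures. The difference of 0.237 points (SE 0.0572, 95% permutation interval 0.128 to 0.346) put G532S at 1.48 times the knockout level. It passed the exact permutation test (p = 0.000154, adjusted 0.00054), and 7 of 7 G532S libraries exceeded the knockout mean. Within title formats the difference was 0.236 points, over 7 G532S and 8 knockout libraries. It passed the exact permutation test (adjusted p = 0.00227).

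M548K cultures averaged 0.440% ± 0.0445 (SD, n = 6), against 0.495% ± 0.0694 (SD, n = 10) in knockout cultures. The difference of -0.0548 points (SE 0.0285) did not pass (exact permutation p = 0.104, adjusted 0.136). Its 95% permutation interval, on the values as deposited, was -0.124 to 0.0136 points. With each library's lambda value subtracted the difference was 0.0370 points, of the opposite sign, and also did not pass (exact permutation p = 0.556).

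**Figure D1:**
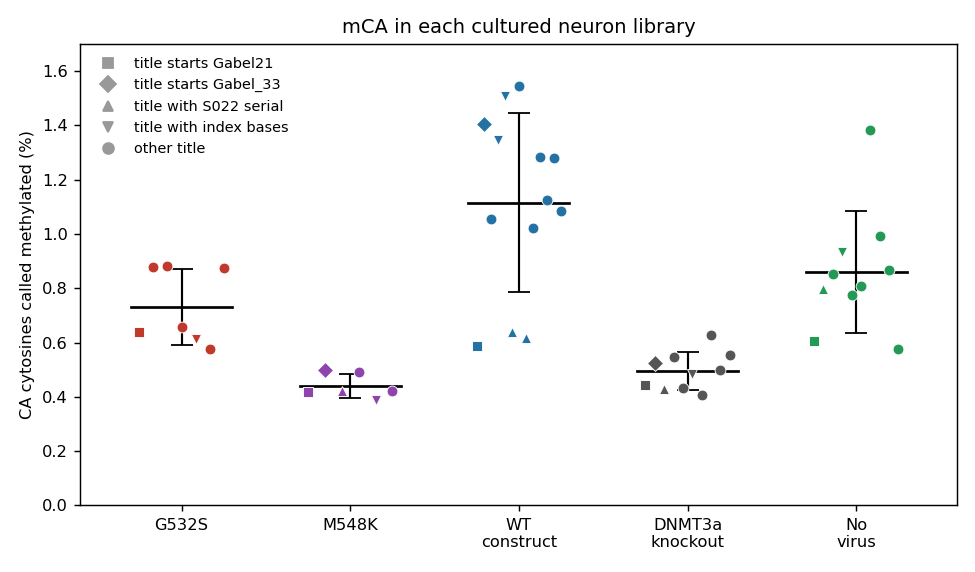
Percentage of CA cytosines called methylated in each culture library (vertical axis) for G532S, M548K, WT construct, DNMT3a knockout and No virus cultures (horizontal axis). Lines are means with SD and symbols mark the title format; G532S libraries lie between 0.575% and 0.883%, M548K libraries between 0.390% and 0.499%, and the 3 low WT construct libraries carry Gabel21 or S022 titles.

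The second comparison asked how far each altered construct fell short of the unaltered one. Both did, M548K by more. The 13 WT construct libraries ranged from 0.585% to 1.55% mCA, with a median of 1.12% and a mean of 1.12% ± 0.330 (SD, n = 13). Of the M548K libraries, 6 of 6 lay below every WT construct library, including the 3 low ones. Of the G532S libraries, 7 of 7 lay below the WT construct mean, but 1 of 7 lay below every WT construct library.

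mCA in M548K cultures was below the WT construct mean (difference -0.675 points, SE 0.0933, 95% permutation interval -0.958 to -0.384), or 39.4% of its level. This passed the exact permutation test (p = 0.000147, adjusted 0.00054). mCA in G532S cultures differed from the WT construct mean by -0.384 points (SE 0.106, 95% permutation interval -0.658 to -0.104), or 65.6% of its level. This passed as well (exact permutation p = 0.0111, adjusted 0.0179).

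The 3 low WT construct libraries reduce both differences. Without Gabel21 and S022 titles, an alternative added after the data had been seen, the difference was -0.519 points for G532S (exact permutation adjusted p = 0.000874) and -0.815 points for M548K (exact permutation adjusted p = 0.0021). Within title formats it was -0.430 points for G532S (exact permutation adjusted p = 0.00147) and -0.649 points for M548K (exact permutation adjusted p = 0.00208). That G532S test held 7 G532S and 10 WT construct libraries. It left out the low WT construct replicates 6 and 8, since no G532S title has an S022 serial. The M548K test held 6 M548K and 13 WT construct libraries. Among Gabel21 titles alone the order was the opposite, with 0.640% in the single G532S library and 0.585% in the single WT construct library, and that G532S library also exceeded the 3 low WT construct libraries. For G532S, the difference in medians, -0.467 points, did not pass (exact permutation adjusted p = 0.0669).

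No virus cultures, which by their label received no construct virus, had mCA from 0.578% to 1.38%, with a median of 0.830%. M548K cultures had less mCA than No virus cultures (difference -0.419 points, 95% permutation interval -0.622 to -0.232), and 6 of 6 M548K libraries lay below every No virus library (exact permutation p = 0.0005, adjusted 0.00131). For G532S the difference from No virus was -0.127 points (95% permutation interval -0.334 to 0.0671) and did not pass (exact permutation p = 0.210, adjusted 0.232).

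The variants also differed from each other, although both alter the same domain. Mean mCA was 0.732% ± 0.140 (SD, n = 7) in G532S cultures and 0.440% ± 0.0445 (SD, n = 6) in M548K cultures, a difference of 0.292 points (SE 0.0559, 95% permutation interval 0.150 to 0.433), or 1.66-fold. Every one of the 7 G532S libraries lay above every M548K library, and the difference passed the exact permutation test (p = 0.00117, adjusted 0.00245). Within title formats it was 0.278 points, over 7 G532S and 4 M548K libraries (exact permutation adjusted p = 0.0179). The difference in medians, 0.236 points, did not pass (exact permutation adjusted p = 0.0904).

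Within G532S, mCA differed by a number in the library titles that comes after the construct code and whose meaning the labels do not state. The 3 libraries with number 48 had mCA of 0.874% to 0.883%, the 3 with number 41 had 0.575% to 0.657%, and the single library with number 3 had 0.640%. The libraries of number 48 thus lay close together and above the rest, beyond the knockout range by more than that range is wide, whereas number 3 fell inside the spread of number 41. In M548K the 2 libraries with number 10 averaged 0.418%, the 2 with number 23 averaged 0.406% and the 2 with number 32 averaged 0.495%. The 3 titles with number 48 also share the prefix p9 and the 3 with number 41 the prefix p7, so in G532S the number and whatever the prefix stands for cannot be told apart. Both prefixes occur in M548K too. There the library with p9, of number 32, had 0.499%, and the 2 with p7, of number 23, had 0.390% and 0.423%. The M548K library of number 32 without a prefix had 0.492%. All 3 M548K numbers lay below all 3 G532S numbers in mean mCA.

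Because a number may mark libraries that share a source, the G532S comparisons were repeated without each group of 3, as alternatives added after the data had been seen. Without number 48, G532S stayed above the knockout by 0.127 points (exact permutation adjusted p = 0.00874) and above M548K by 0.182 points (exact permutation adjusted p = 0.00874), and its difference from the WT construct was -0.494 points (exact permutation adjusted p = 0.0251). Without number 41, G532S was above the knockout by 0.324 points (exact permutation adjusted p = 0.00233) and above M548K by 0.379 points (exact permutation adjusted p = 0.00833). Its difference from the WT construct was then -0.296 points and did not pass (exact permutation adjusted p = 0.136).

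**Figure D2:**
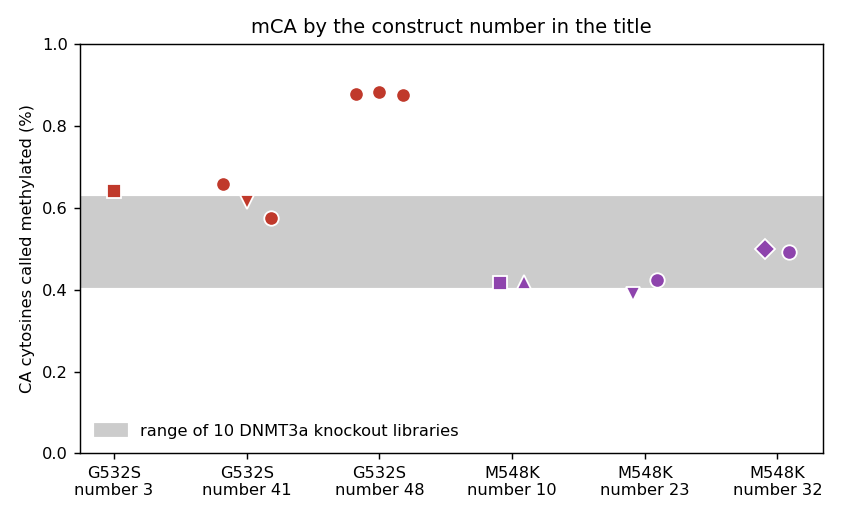
Percentage of CA cytosines called methylated (vertical axis) in the G532S and M548K libraries, grouped by the number that follows the construct code in the title (horizontal axis), with symbols for title formats as in the plot of all libraries. The grey band is the range of the 10 DNMT3a knockout libraries, 0.407% to 0.626%; the 3 libraries of G532S number 48 lie well above it, and M548K libraries lie in it or, in 1 case, below it.

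CT, the non-CG context that DNMT3A methylates next most, moved in the same order as CA at lower levels. Methylation at CT (mCT) was 0.385%, 0.457%, 0.457%, 0.414%, 0.396%, 0.372% and 0.440% in the 7 G532S libraries. It was 0.339%, 0.360%, 0.350%, 0.333%, 0.344% and 0.362% in the 6 M548K libraries. The lowest G532S library thus lay above the highest M548K library, and the 6 M548K libraries lay below every WT construct library, of which the lowest had 0.390%. Most of these values lay below the percentage called in the unmethylated lambda control. Lambda exceeded mCT in 7 of 7 G532S, 5 of 6 M548K, 7 of 13 WT construct and 10 of 10 knockout libraries.

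Mean mCT was 0.417% ± 0.0347 (SD, n = 7) in G532S and 0.348% ± 0.0115 (SD, n = 6) in M548K cultures, a difference of 0.0690 points (exact permutation p = 0.00175, adjusted 0.00408). Against the WT construct, with 0.531% ± 0.0868 (SD, n = 13), the difference was -0.113 points for G532S (exact permutation p = 0.00542, adjusted 0.0103) and -0.182 points for M548K (exact permutation p = 7.37e-05, adjusted 0.000817). M548K differed from the knockout, with 0.369% ± 0.0424 (SD, n = 10), by -0.0204 points, which did not pass (exact permutation p = 0.303, adjusted 0.335).

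G532S exceeded the knockout in mCT by 0.0486 points (SE 0.0187), which passed narrowly (exact permutation p = 0.0262, adjusted 0.0424). The call was lost on leaving out any 1 of G532S replicates 2, 3, 4 and 7 or knockout replicates 1, 2, 3, 4, 6, 7, 8 and 9, with an exact permutation adjusted p of up to 0.0924, and within title formats (exact permutation adjusted p = 0.0576). Knockout replicate 10 had the highest mCT of its group, 0.475%, and also the highest CC value, 0.397%; without it the difference was 0.0605 points (exact permutation adjusted p = 0.00186). With each library's CC value subtracted the difference was 0.0582 points and passed (exact permutation adjusted p = 0.00072).

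Methylation at CC, the context with the lowest values, differed little between the groups. It averaged 0.289% ± 0.0174 (SD, n = 7) in G532S and 0.279% ± 0.0123 (SD, n = 6) in M548K cultures, against 0.320% ± 0.0288 (SD, n = 13) with the WT construct and 0.299% ± 0.0394 (SD, n = 10) in knockout cultures. No comparison passed: the difference from the WT construct was -0.0308 points for G532S (exact permutation p = 0.0200, adjusted 0.105) and -0.0408 points for M548K (exact permutation p = 0.0045, adjusted 0.0944). Without WT construct replicate 7, which had the lowest CC value of its group, 0.274%, the M548K difference was -0.0446 points and passed (exact permutation adjusted p = 0.0328). The variants differed from each other by 0.00994 points at CC, which did not pass (exact permutation p = 0.263, adjusted 0.460).

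**Figure D3:**
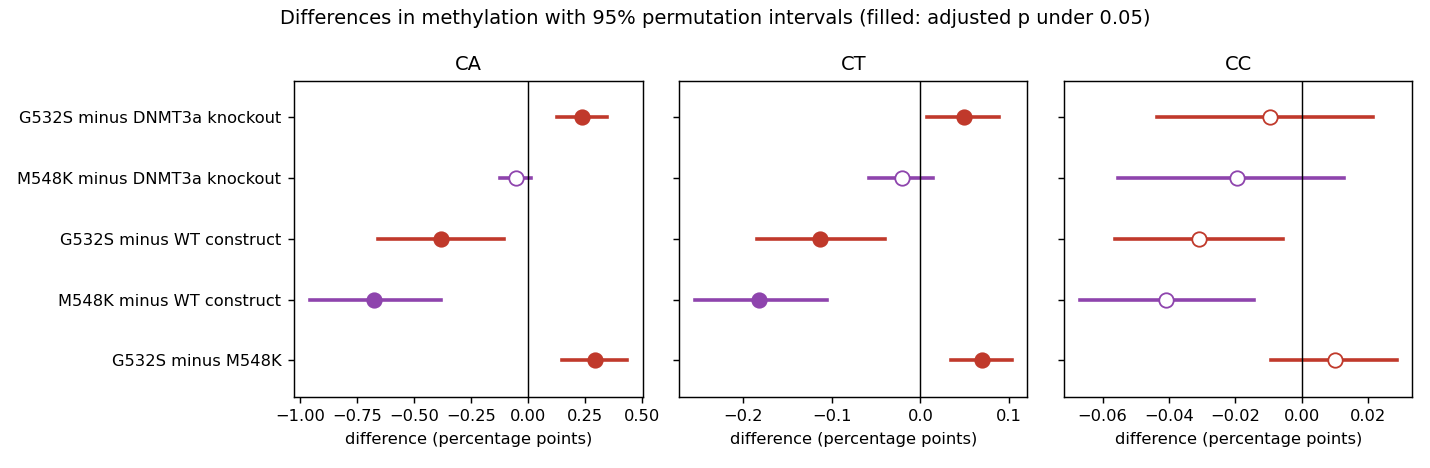
Differences in mean methylation (horizontal axes, percentage points) at CA, CT and CC for 5 comparisons, with 95% permutation intervals; filled symbols have an adjusted p under 0.05. In CA and CT, G532S lies above knockout and M548K and below the WT construct, M548K lies below the WT construct, and the interval for M548K minus knockout includes 0; no CC difference is filled.

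With CC taken as each library's own floor, mCA above it averaged 0.443 points ± 0.140 (SD, n = 7) in G532S, 0.161 ± 0.0512 (SD, n = 6) in M548K, 0.795 ± 0.327 (SD, n = 13) with the WT construct and 0.196 ± 0.0751 (SD, n = 10) in knockout cultures. On this scale the difference between G532S and the knockout was 0.247 points (exact permutation adjusted p = 0.00081), and that between G532S and M548K was 0.282 points (exact permutation adjusted p = 0.00175). CA exceeded CT, and CT exceeded CC, in every G532S and M548K library. The ratio of CA to CT, each above CC, averaged 3.43 ± 0.339 in G532S, 2.32 ± 0.570 in M548K, 3.71 ± 0.219 with the WT construct and 2.76 ± 0.653 in knockout cultures. It ranged from 2.84 to 3.82 in G532S and from 1.67 to 3.11 in M548K, so the groups overlapped; this ratio was not tested, and it divides by small values in M548K and knockout libraries.

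The lambda control carries no methylation, so its called percentage measures cytosines left unconverted or misread. It was 0.542% ± 0.0659 (SD, n = 7) in G532S and 0.462% ± 0.147 (SD, n = 6) in M548K libraries, against 0.588% ± 0.185 (SD, n = 13) with the WT construct and 0.553% ± 0.111 (SD, n = 10) in knockout libraries. No comparison of lambda passed: M548K minus WT construct was -0.127 points (exact permutation p = 0.162, adjusted 0.809) and G532S minus M548K 0.0808 points (exact permutation p = 0.212, adjusted 0.809). Within title formats these differences were -0.150 points (exact permutation p = 0.0270, adjusted 0.333) and 0.100 points (exact permutation p = 0.0476, adjusted 0.333), so M548K had the lower lambda values in both. Lambda exceeded CC in every library of these groups, so it is not a floor for the genomic values. mCA exceeded lambda in 7 of 7 G532S, 2 of 6 M548K, 13 of 13 WT construct and 4 of 10 knockout libraries. In most M548K libraries, as in most knockout libraries, mCA thus did not exceed the rate called in lambda.

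The mCA calls that separate G532S, M548K, WT construct and knockout cultures held with lambda subtracted. G532S then exceeded the knockout by 0.248 points (exact permutation adjusted p = 0.00054) and M548K by 0.211 points (exact permutation adjusted p = 0.0194). The smaller mCT differences did not hold on that scale: with lambda subtracted the difference between G532S and M548K at CT was -0.0118 points (exact permutation p = 0.857). With CC subtracted instead, that mCT difference was 0.0590 points and passed (exact permutation adjusted p = 0.00418). The mCT differences from the WT construct also passed with CC subtracted. They were -0.0825 points for G532S (exact permutation adjusted p = 0.0316) and -0.142 points for M548K (exact permutation adjusted p = 0.00247).

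CG methylation, most of which is already present in embryonic neurons, gave no comparison of the variants that passed. The G532S libraries had mCG of 74.7%, 74.9%, 75.2%, 73.1%, 72.0%, 76.2% and 75.2%. The M548K libraries had 69.9%, 77.2%, 68.7%, 75.1%, 73.5% and 74.9%. Both sets lie largely within the knockout range of 65.9% to 75.8% and the WT construct range of 69.0% to 76.8%, and the spread was wider in M548K than in G532S.

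Mean mCG was 74.5% ± 1.45 (SD, n = 7) in G532S, 73.2% ± 3.29 (SD, n = 6) in M548K, 73.7% ± 2.52 (SD, n = 13) with the WT construct and 71.9% ± 3.28 (SD, n = 10) in knockout cultures. The largest difference, 2.53 points between G532S and the knockout (95% permutation interval -0.282 to 5.39), did not pass (exact permutation p = 0.0760, adjusted 0.803), and neither did that of 1.30 points between M548K and the knockout (exact permutation p = 0.453, adjusted 0.803). Within title formats these differences were 2.59 points for G532S (exact permutation p = 0.0179) and 2.16 points for M548K (exact permutation p = 0.0223), and did not pass over the 21 comparisons (adjusted 0.117 for each). M548K differed from the WT construct by -0.511 points (95% permutation interval -3.40 to 2.37; exact permutation p = 0.716), and the sign turned on leaving out M548K replicate 1 or 3. The 2 M548K libraries with Gabel21 or S022 titles had the lowest mCG, 68.7% and 69.9%, as did the 3 WT construct libraries with such titles, at 69.0% to 70.5%; the G532S library with a Gabel21 title had 74.7%. The intervals span several points of mCG, so differences of that size were not detectable with these libraries.

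**Figure D4:**
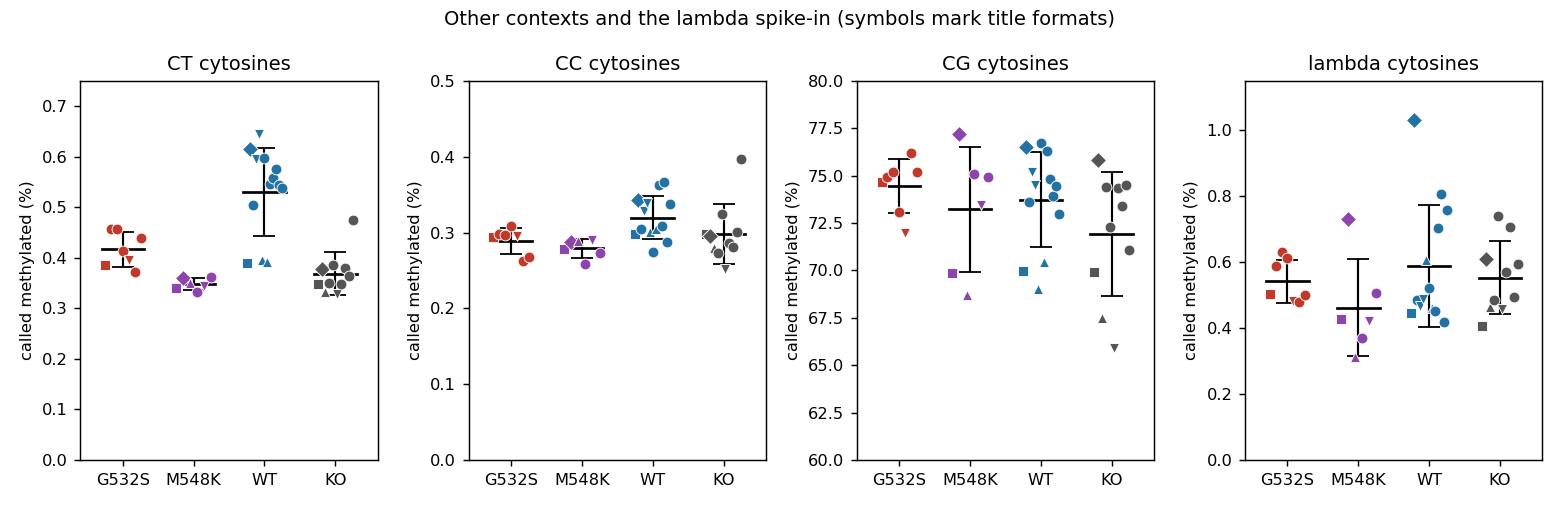
Percentage of cytosines called methylated (vertical axes) at CT, CC and CG and in the lambda control, in each G532S, M548K, WT construct (WT) and DNMT3a knockout (KO) library, with means and SD and symbols for title formats; the CG axis does not start at 0. The G532S and M548K libraries do not overlap at CT, and the groups overlap at CC, CG and lambda.

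To place the ADD variants among the other altered constructs, mean mCA was set on the step that separates the knockout, as 0%, from the WT construct, as 100%. G532S stood at 38.2% of this step (SE 10.4) and M548K at -8.84% (SE 5.01). Without libraries of Gabel21 and S022 titles these shares were 31.4% and -7.72%. With CC subtracted they were 41.1% (SE 11.0) and -5.89% (SE 5.53). Among 11 groups ordered by mean mCA, G532S was the 5th highest, between V665L and P904L with 0.599%, and M548K the 10th, between S312fs11x with 0.470% and W297del with 0.411%.

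Each ADD variant was then tested against the other 6 altered constructs, with p-values adjusted over the 12 comparisons. Some V665L and P904L libraries have Gabel21 or S022 titles, and no Y735C, W297del, R749C or S312fs11x library does. These comparisons, like the order of the groups by mean mCA, take no account of title format. G532S exceeded W297del, a deletion of a PWWP residue, by 0.321 points (exact permutation adjusted p = 0.0152) and the frameshift S312fs11x by 0.262 points (exact permutation adjusted p = 0.0440). Against the constructs altered in the catalytic domain, G532S did not pass after adjustment: the difference was -0.0972 points from V665L (95% permutation interval -0.423 to 0.218), -0.209 from Y735C (-0.467 to 0.0399), 0.189 from R749C (0.0221 to 0.351) and 0.132 from P904L (-0.0664 to 0.320). The interval for R749C excludes 0, and this difference passed unadjusted but not over the 12 comparisons (exact permutation p = 0.0315, adjusted 0.0755).

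M548K was separated from a different pair of constructs. It lay below Y735C (difference -0.501 points, exact permutation adjusted p = 0.0107) and below V665L (difference -0.389 points, exact permutation adjusted p = 0.0440). Its differences from W297del, 0.0294 points (95% permutation interval -0.0223 to 0.0836), and from S312fs11x (95% permutation interval -0.118 to 0.0576) did not pass, and neither did those from R749C, -0.103 points (-0.239 to 0.0246), and P904L, -0.160 points (-0.328 to 0.00269). With CC subtracted, the differences of G532S from S312fs11x and of M548K from V665L no longer passed (exact permutation adjusted p = 0.0545 for each).

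**Figure D5:**
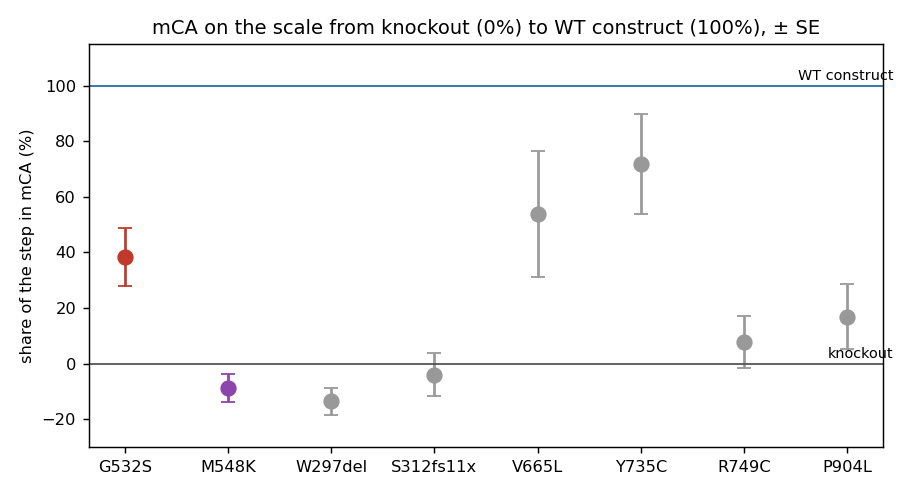
Mean mCA of each altered construct as a share of the step from DNMT3a knockout (0%) to WT construct (100%), with SE from the spread of all 3 groups involved; the horizontal axis names the construct. G532S stands at 38.2% and M548K at -8.84%, and the 6 other altered constructs range from -13.6% for W297del to 71.9% for Y735C.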

How the data were processed

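Whole-genome bisulfite libraries were prepared with the Ovation Ultralow Methyl-Seq and Epitect kits, per the labels' protocols. The submitters' processing notes name BS-Seeker2, bedtools and the mm9 build; versions and filters are not given in the sources used here. The authors deposited 1 methylated fraction per library and context in a table of shallow libraries, without counts or coverage. The deposited fractions were multiplied by 100 and otherwise used as given, with no correction for lambda, no weights and no coverage minimum; the table of 8 deep cortex libraries was not used here. That table was deposited by the authors as fractions too.

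Groups came from the genotype labels of cultures at 12.5 days in vitro, of which 88 libraries had a group. Another 2 culture libraries, with a title that disagrees with the genotype label, entered no comparison. No 2 culture libraries held identical values within 1e-09. No gene is measured in this table; every library and context of G532S and M548K was reported. The groups, comparisons and added alternatives were chosen with earlier results of these data known.

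Differences in means were tested by two-sided permutation, exact where a group held fewer than 10 libraries and otherwise with 100000 resamples (seed 1), and intervals were obtained by inverting the test (Python 3.11.15, numpy 2.4.6, pandas 2.3.3, scipy 1.17.1). SEs are from the unpooled variances, and that of a step share is by the delta method. The procedure was tested on simulated data. Alternatives were medians, a logit scale, lambda values of 0 kept (none occurred in these cultures), CC or lambda subtracted, averages by culture code or construct number, permutation within title format, adjustment over all 5 columns, each library left out, and omission of title formats or construct numbers.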

Additional observations from a re-analysis of the deposited data

Results flagged for a closer look

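In 16 sets of values, each a group and a context, 3 had an end library farther from the rest than Dixon's 95% critical value allows, and none of the 3 was of G532S or M548K. The sets were G532S, M548K and DNMT3a knockout in all 5 columns and No virus in CA; the WT construct, with 13 libraries, was not checked, since the rule covers groups of at most 10. DNMT3a knockout replicate 10 had the highest CT value of its group, 0.475%, and the highest CC value, 0.397%. Without it, G532S exceeded the knockout at CT by 0.0605 points, against 0.0486 points with it, and the difference between G532S and the knockout at CC changed sign, to 0.00131 points. No virus replicate 7 had the highest mCA of its group, 1.38%. Without it, the difference of G532S from No virus was -0.0690 points (exact permutation adjusted p = 0.362) and that of M548K was -0.361 points, which still passed. Chance alone gives such a gap in about 5% of sets.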

How the results depend on the processing

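Of 245 recomputed values under alternatives, 214 kept their direction and side of the threshold (counts: stayed within 1.5 times), and of 458 with 1 library left out, 440 did. No call in mCA changed when 1 library was left out: the difference ranged from 0.212 to 0.263 points for G532S minus knockout, from -0.0666 to -0.0402 for M548K minus knockout, from -0.428 to -0.348 for G532S minus WT construct, from -0.720 to -0.639 for M548K minus WT construct and from 0.266 to 0.318 for G532S minus M548K. With libraries averaged by construct number, 3 averages stood against 3, a design that cannot go below an exact permutation p of 0.1, and none of these could pass: mCA differed by -0.396 points for G532S minus WT construct, -0.667 for M548K minus WT construct and 0.271 for G532S minus M548K, and mCT by -0.122, -0.184 and 0.0618. Against the 10 knockout libraries, G532S still passed in mCA with construct numbers averaged (0.217 points, exact permutation adjusted p = 0.0367), but not in mCT (0.0414 points). By medians, G532S minus WT construct was -0.467 points and G532S minus M548K 0.236 points in mCA, and G532S minus WT construct was -0.132 points in mCT; none passed. By medians G532S minus knockout at CC was 0.00509 points, and G532S minus WT construct for lambda 0.0159 points, both of changed sign. Without number 41, G532S minus WT construct was -0.296 points in mCA and -0.0958 in mCT, neither passing, and G532S minus knockout for lambda was 0.00203. With lambda subtracted, M548K minus knockout turned to 0.0370 points in mCA and 0.0715 in mCT, G532S minus M548K turned to -0.0118 in mCT, and mCT lost the calls of G532S minus knockout (0.0597), G532S minus WT construct (-0.0674) and M548K minus WT construct (-0.0556). The mCT call of G532S over knockout was also lost within title formats (0.0467), without Gabel21 and S022 titles (0.0468), without number 48 (0.0231) and with adjustment over all columns (0.0486); leaving out 1 library gave 0.0419 to 0.0605. With adjustment over all columns, M548K minus WT construct at CC, -0.0408 points, passed; leaving out 1 library gave -0.0446 to -0.0366, and -0.0148 to 0.00131 for G532S minus knockout at CC. Without Gabel21 and S022 titles, mCG differences changed sign for G532S minus WT construct (-0.491), M548K minus WT construct (0.274) and G532S minus M548K (-0.765). Leaving out 1 library gave -1.31 to 0.388 points for M548K minus WT construct in mCG and -0.0272 to 0.00976 for G532S minus knockout for lambda. With CC subtracted, 1 in place of 2 other constructs passed against G532S, and 1 in place of 2 against M548K. Except where the number of averages shows it, the cause of these changes was not tested. No paired analysis was possible because replicate numbers in these groups follow accession order and pair no libraries; titles that share a format were used as blocks, and the labels define no finer sets. Depth per library is unknown, so its part in the spread cannot be given.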

Other observations

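The 2 culture libraries whose title and genotype label disagree belong to no group. The library titled p1-Cre-A, labelled No virus, had mCA of 0.947%, CT of 0.472%, CC of 0.310%, mCG of 70.0% and lambda of 0.510%. The library titled p1-NV, labelled DNMT3a knockout, had mCA of 0.476%, CT of 0.394%, CC of 0.322%, mCG of 70.1% and lambda of 0.467%.

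Libraries of the WT construct that share a culture letter and construct number in their titles differed between title formats. For number 5 and letter A, mCA was 0.638% in the library with an S022 serial (replicate 6) and 1.55% in the one without it (replicate 7). For letter B it was 0.617% with an S022 serial (replicate 8) and 1.28% without it (replicate 10), and for letter C it was 0.585% under a Gabel21 title (replicate 1) and 1.41% under a Gabel_33 title (replicate 2). In M548K number 10, the pair of libraries with a Gabel21 title and an S022 serial had mCA of 0.416% and 0.420%; no M548K library of that number has another format. In G532S, letter B of number 41 occurs in 2 formats, with mCA of 0.614% under a title with index bases and 0.575% under one without.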
